A study of Sus scrofa with 6 samples.

Results

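The 9 genes described here, NDUFV1, NDUFS3, NDUFS7, NDUFS8, NDUFA2, NDUFA7, NDUFA11, NDUFA13 and NDUFB7, encode subunits of mitochondrial complex I and lie on pig chromosome 2. They were chosen with earlier results of these data known and taken by symbol from the 30002 genes of the deposited tables. All 9 were among the 1652 genes with enough counts to be tested. The RNA came from 6 whole pig embryos collected at embryonic day 21. The 3 parthenogenetic embryos (PA) arose from matured oocytes activated by electric pulses and grown in surrogate gilts, so that their genome is maternal only. By the study's methods, these oocytes came from ovaries of Landrace x Yorkshire x Duroc pigs, and the surrogates were Landrace x Yorkshire. The 3 control embryos (CN), labelled untreated, came by the same methods from natural mating of Landrace x Yorkshire gilts with boars of a breed not stated there. Oocyte maturation in culture, electric activation, embryo transfer and the breed of the oocyte donors were specific to PA. They cannot be told apart from the absence of a paternal genome. The study's methods do not give the sex of the embryos. The litter of each embryo is not given either, so that p-values measure the spread between these embryos only. Whether uniparental development went with another level of these genes was the question of the comparison.

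Complex I, the NADH:ubiquinone oxidoreductase, takes electrons from NADH and passes them through a flavin and a chain of iron-sulfur clusters to ubiquinone, and its membrane arm pumps protons across the inner mitochondrial membrane. Core subunits carry out these reactions, and supernumerary subunits surround and stabilise them. Some core subunits are encoded by mitochondrial DNA. The other core subunits and the supernumerary subunits are encoded by nuclear genes, the 9 here among them, and their proteins are imported. In early embryos the respiratory chain is built up as tissues such as the heart turn to oxidative metabolism.

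From the Sscrofa11.1 genome, 4 stretches of sequence are shown: the starts of the genes that passed the test, NDUFV1 and NDUFS7, the start of NDUFS3 for its run of 3 ETS cores, and a splice site that tells apart transcripts of NDUFS7. The first 3 are the regions from 250 bases before to 50 bases after the annotated start of NDUFV1 (chr2:4964162-4964461, minus strand), NDUFS7 (chr2:77087092-77087391, minus strand) and NDUFS3 (chr2:15036831-15037130, minus strand). Capitals mark, on either strand, the core that ETS factors such as GABPA bind (CCGGAAG, or CTTCCGG read from the other strand) and the core of NRF1 (GCATGCGC, or GCGCATGC read from the other strand), both known for their part in transcription of respiratory chain genes. The fourth is the boundary of intron 3 and exon 4 of NDUFS7 (chr2:77083833-77083857, minus strand), where capitals mark the 3 bases that only the longer of its main transcripts keeps.
NDUFV1 start: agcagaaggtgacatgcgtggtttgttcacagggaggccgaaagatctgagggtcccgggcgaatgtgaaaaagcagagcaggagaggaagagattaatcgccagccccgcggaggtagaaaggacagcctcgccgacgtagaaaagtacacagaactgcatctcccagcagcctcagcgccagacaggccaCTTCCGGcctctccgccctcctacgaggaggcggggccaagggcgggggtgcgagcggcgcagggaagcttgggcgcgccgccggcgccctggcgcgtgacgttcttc
NDUFS7 start: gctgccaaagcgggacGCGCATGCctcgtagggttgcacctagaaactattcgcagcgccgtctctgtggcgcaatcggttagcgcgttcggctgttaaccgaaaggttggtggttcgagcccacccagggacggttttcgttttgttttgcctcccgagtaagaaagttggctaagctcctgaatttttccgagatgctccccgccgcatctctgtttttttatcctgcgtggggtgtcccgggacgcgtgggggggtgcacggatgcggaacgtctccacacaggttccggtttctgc
NDUFS3 start: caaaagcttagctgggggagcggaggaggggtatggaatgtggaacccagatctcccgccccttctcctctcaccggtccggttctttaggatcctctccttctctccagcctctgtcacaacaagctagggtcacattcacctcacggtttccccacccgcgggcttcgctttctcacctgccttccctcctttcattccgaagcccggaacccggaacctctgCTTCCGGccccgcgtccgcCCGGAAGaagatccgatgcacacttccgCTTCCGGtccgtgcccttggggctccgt
NDUFS7 acceptor: tcccttgcccagTAGccagcctgct

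An ETS core stood in this window in 3 of the 9 genes, NDUFV1, NDUFS3 and NDUFB7, beside 15.6% of 1530 windows of the same length at genes of chromosome 2. The NRF1 core was found in 1 of the 9, NDUFS7, beside 3.92% of all windows. The SP1 core GGGCGG, which in NDUFS3 shares bases with an ETS core, was found in 5 of 9 and in 61.9% of all. The motif AAGGTCA of ESRRA, an orphan nuclear receptor of mitochondrial gene transcription, and the YY1 core AAGATGG were found in 0 of 9, beside 3.99% and 6.21% of all windows. These are matches of letters on both strands and say nothing on binding.

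The estimated counts of the files summed to between 3100284 and 3276414 in CN and between 3360478 and 3573406 in PA. Transcripts of chromosome 2 together with H19, which the annotation used here does not hold, took 99.6% to 99.7% of them, so the TPM values below (abundance scaled for transcript length to one sum per embryo) are relative to transcripts of chromosome 2. H19 took 6.88% to 7.74% of the counts in CN and 8.44% to 16.9% in PA, with the highest share in PA1. Counts were also scaled by TMM factors and the offset for average transcript length into normalized CPM, which are comparable between embryos but not divided by gene length. The tests between groups were fitted to the counts with the same factors and offset.

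All 9 genes had a lower mean in PA than in CN on both scales. NDUFV1 and NDUFS7 passed the threshold of an adjusted p of 0.05 in edgeR's quasi-likelihood test, whereas the other 7 did not, and 0 of 9 also reached the study's second criterion of a log2 fold change beyond 1. Over all 1652 genes 6.54% passed in either direction, 4.42% passed as lower in PA, 2.78% passed with a log2 fold change below -1, and 47.1% had a negative log2 fold change whatever its p. The median log2 fold change, PA over CN, was -0.45 for the 9 genes and 0.02 for all genes tested, and 6 of the 9 had an unadjusted p below 0.05, beside 21.1% of all. As whole embryos were measured, fewer cells rich in mitochondria and less of this RNA per cell cannot be told apart.

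**Figure D1:**
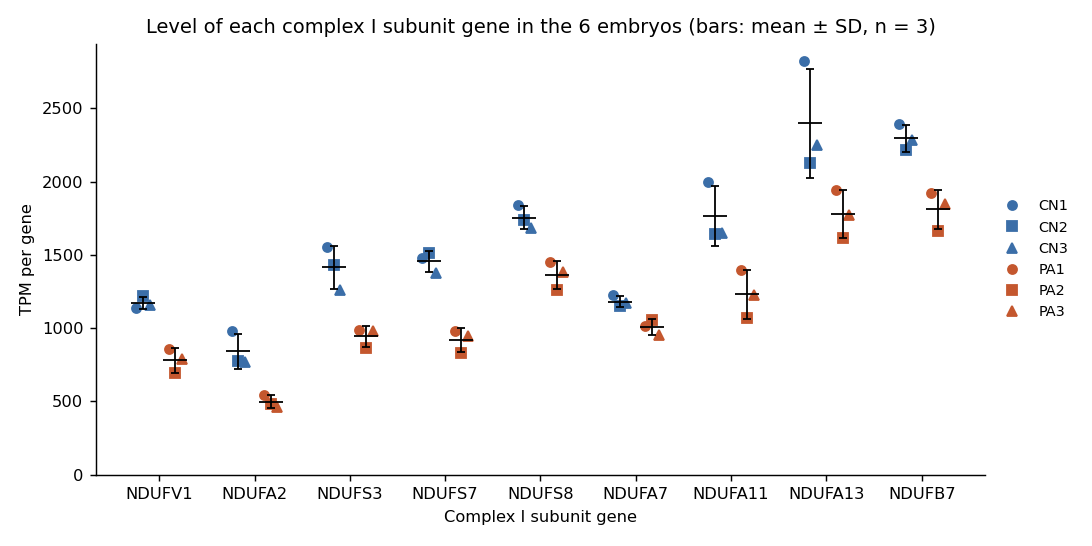
TPM of each of the 9 genes (y axis, from 0) in the 3 CN embryos (blue) and the 3 PA embryos (orange), with the embryo number shown by the marker and the black bars giving the mean and SD of 3 embryos. In all 9 genes the PA points lie below the CN points, and NDUFA7 shows the narrowest gap.

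NDUFV1 (chr2:4958508-4964211, minus strand, 10 exons) encodes the core subunit that binds NADH and the flavin. Its TPM was 1135, 1218 and 1160 in CN1, CN2 and CN3 and 856, 691 and 791 in PA1, PA2 and PA3. The highest PA embryo thus lay well below the lowest CN embryo, and the normalized CPM, 990 ± 55.9 (SD, n = 3) in CN and 694 ± 116 in PA, did not overlap either. The log2 fold change of the counts was -0.51 (standard error 0.12, 95% interval -0.79 to -0.23, edgeR adjusted p = 0.0445). With H19 and IGF2 left out before scaling it was -0.50, with an adjusted p of 0.0503, and no longer passed.

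NDUFA2 (chr2:142359000-142361126, minus strand, 3 exons), a supernumerary subunit with a thioredoxin-like fold on the NADH-binding part of the matrix arm, had the most negative log2 fold change of the 9. Its TPM was 978, 777 and 767 in CN and 547, 485 and 464 in PA, without overlap. The log2 fold change was -0.69 (standard error 0.18, 95% interval -1.11 to -0.27), with an edgeR adjusted p of 0.0652. In TPM, CN1 stood apart from the other controls, and the 3 PA embryos were close together. The normalized CPM was 327, 220 and 228 in CN and 190, 154 and 136 in PA, where the PA embryos were more spread.

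NDUFS3, NDUFS7 and NDUFS8 are core subunits of the part of the matrix arm that leads electrons to ubiquinone. NDUFS7 (chr2:77080311-77087141, minus strand) carries the last iron-sulfur cluster, N2, next to the quinone site. Its TPM was 1479, 1509 and 1377 in CN and 981, 831 and 947 in PA. The embryos of the groups were far apart beside their spread, and the log2 fold change was -0.59 (standard error 0.12, 95% interval -0.87 to -0.32, edgeR adjusted p = 0.0252), the lowest adjusted p of the 9.

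NDUFS3 (chr2:15031147-15036880, minus strand, 7 exons) lies at the interface with the other core subunits of that part. Its TPM was 1554, 1430 and 1262 in CN and 985, 863 and 981 in PA. The groups did not overlap, but CN varied more than for NDUFS7, and the log2 fold change of -0.52 (standard error 0.14, 95% interval -0.84 to -0.20) had an edgeR adjusted p of 0.0669.

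NDUFS8 (chr2:4863295-4867392, minus strand, 7 exons in its leading transcript) binds a pair of iron-sulfur clusters on the path to N2. Its TPM was 1840, 1736 and 1685 in CN and 1450, 1261 and 1385 in PA. In normalized CPM, PA1 at 756 lay above CN2 at 737 and CN3 at 752, so the groups overlapped there. Its log2 fold change was -0.29 (standard error 0.13, 95% interval -0.58 to -0.01, edgeR adjusted p = 0.227).

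NDUFA7 (chr2:70954844-70961717, plus strand, 4 exons), a supernumerary subunit of the matrix arm, had the log2 fold change nearest to 0 of the 9. Its TPM was 1223, 1152 and 1169 in CN and 1014, 1058 and 950 in PA. The normalized CPM overlapped, with PA1 at 247 above CN2 at 228 and CN3 at 243, and the log2 fold change was -0.16 (standard error 0.13, 95% interval -0.45 to 0.13, edgeR adjusted p = 0.509). The ratio of NDUFA7 to NDUFA2 in TPM, chosen after the values were seen as that of the 2 ends of the range, was 1.25, 1.48 and 1.52 in CN and 1.86, 2.18 and 2.05 in PA. The choice of these genes fixed the direction of that shift.

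The 3 subunits of the membrane arm, all supernumerary, did not pass the test. NDUFA11 (chr2:73131029-73137921, plus strand, 4 exons), which spans the membrane, had a TPM of 1999, 1641 and 1648 in CN and 1400, 1066 and 1228 in PA. CN1 was apart from the other controls, and the log2 fold change of -0.45 had a standard error of 0.18 (95% interval -0.86 to -0.04, edgeR adjusted p = 0.189).

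NDUFA13 (chr2:58401542-58410414, minus strand, 5 exons), also known as GRIM-19, had a TPM of 2820, 2124 and 2248 in CN and 1945, 1616 and 1770 in PA. The SD in CN, 371 around a mean of 2397, was the largest of the 9 genes, and the log2 fold change was -0.37 (standard error 0.18, 95% interval -0.79 to 0.04, edgeR adjusted p = 0.290). NDUFB7 (chr2:64718892-64723631, plus strand, 3 exons), a subunit on the side of the membrane arm that faces the intermembrane space, had a TPM of 2393, 2212 and 2280 in CN and 1923, 1661 and 1846 in PA. The controls were close together on this scale, and the log2 fold change of the counts was -0.28 (standard error 0.13, 95% interval -0.57 to 0.02, edgeR adjusted p = 0.266).

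The share of genes without overlap depended on the scale. In TPM the highest PA embryo lay below the lowest CN embryo in all 9 genes, beside 16.6% of the 1652 genes, and this held for 9 of 9 when H19 and IGF2 were left out of the TPM sum. In normalized CPM it held for 4 of 9, NDUFV1, NDUFS3, NDUFS7 and NDUFA2, beside 13.6% of all genes. Each of the 9 differences in TPM had p = 0.1 in a two-sided exact permutation test, the smallest p that 3 embryos against 3 can give.

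**Figure D2:**
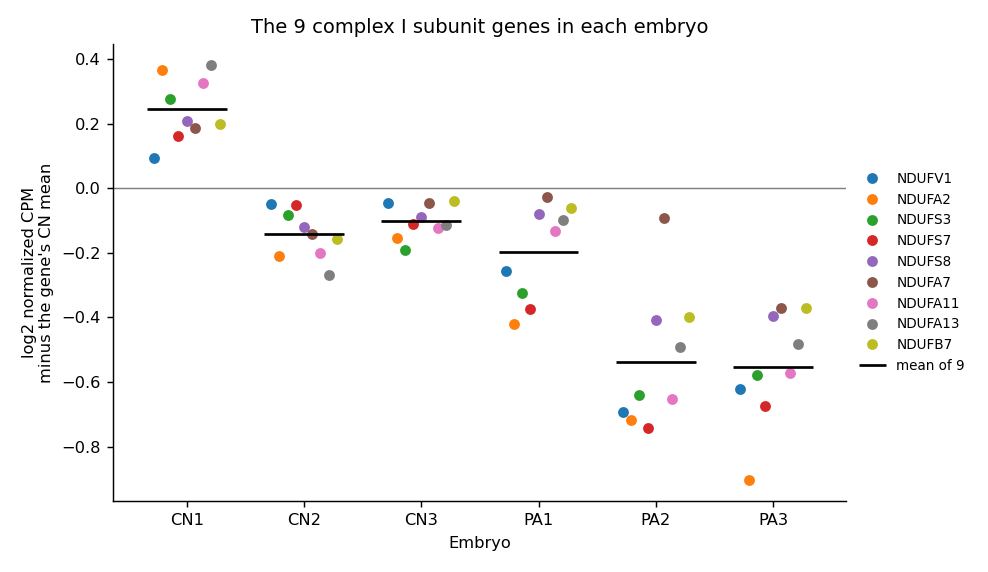
Log2 normalized CPM of the 9 genes in each embryo, each gene set to 0 at its mean over the 3 CN embryos, with coloured points for genes and black bars for the mean of the 9. CN1 is at 0.24, CN2 and CN3 at -0.14 and -0.10, PA1 at -0.20, and PA2 and PA3 at -0.54 and -0.55.

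CN1 had the highest normalized CPM of the controls for all 9 genes, beside 40.6% of all tested genes, and PA1 the highest of the PA embryos for all 9, beside 36.2% of all. In TPM the same held for CN1 in 7 of 9, beside 18.0% of all, the exceptions being NDUFV1 and NDUFS7, highest in CN2, and for PA1 in 8 of 9, beside 15.1% of all, NDUFA7 being highest in PA2. On the log2 scale, relative to the mean of CN, the mean of the 9 genes was 0.24, -0.14 and -0.10 in CN1, CN2 and CN3 and -0.20, -0.54 and -0.55 in PA1, PA2 and PA3. On this scale PA1 was only slightly below CN2 and CN3, and PA2 and PA3 lay below all others. The distance of PA1 depended on the scale. The summed TPM of the 9 genes was 15420, 13801 and 13598 in CN and 11102, 9531 and 10362 in PA. PA1 also had the lowest TMM factor, 0.913, and the highest share of H19, and the part of either in its distance was not tested.

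With 2 embryos left in a group the calls changed while the folds of the called genes stayed of similar size. Without CN1, CN2, CN3, PA2 or PA3, in turn, 0 of 9 genes passed (edgeR), with adjusted p-values between 0.0564 and 0.0998 for NDUFS7 and between 0.101 and 0.162 for NDUFV1, and without PA1 4 of 9 passed, NDUFA2 (adjusted p = 0.0403) and NDUFS3 (0.0425) besides those of the full set. Over all genes tested the share called lower in PA was 4.38% without CN1, 2.43% without CN2, 2.43% without CN3, 5.08% without PA1, 2.78% without PA2 and 2.90% without PA3, so that it stayed near the 4.42% of the full set without CN1, where 0 of the 9 passed. The log2 fold change of NDUFS7 was -0.61 without CN2, -0.63 without CN3 and between -0.54 and -0.50 without CN1, PA2 or PA3, and that of NDUFV1 was -0.53, -0.52 and between -0.46 and -0.43. The median log2 fold change of the 9 was -0.26 without CN1, the embryo with the highest levels, and -0.62 without PA1. Without CN1 the log2 fold change was -0.17 for NDUFS8, -0.05 for NDUFA7, -0.26 for NDUFA11, -0.15 for NDUFA13 and -0.16 for NDUFB7, and without PA3 that of NDUFA7 was -0.05. All 9 stayed negative in each case.

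**Figure D3:**
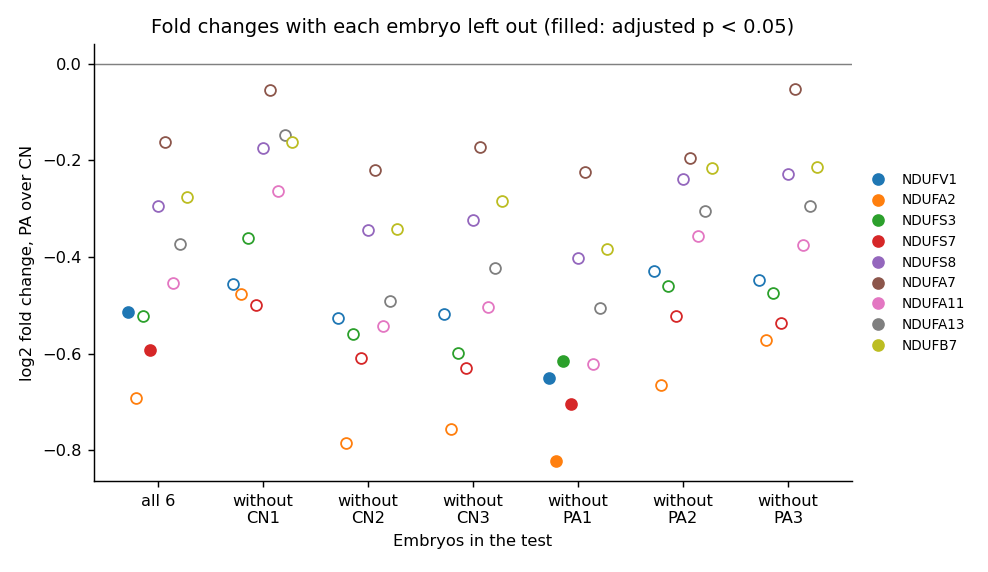
Log2 fold change, PA over CN, of each gene (y axis) with all 6 embryos and with each embryo left out (x axis). Filled points have an adjusted p below 0.05, which holds for 2 genes with all 6 embryos, for 4 without PA1 and for 0 in the other cases.

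DESeq2, the tool of the study, was run as an alternative and gave a log2 fold change of -0.69 for NDUFA2 and -0.52 for NDUFS3, the same as edgeR, with adjusted p-values of 0.00496 and 0.00938. It called 4 of the 9 genes, all lower in PA, beside 7.33% of the 1501 genes to which it gave an adjusted p.

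By TPM in CN the order of the genes was NDUFA13, NDUFB7, NDUFA11, NDUFS8, NDUFS7, NDUFS3, NDUFA7, NDUFV1 and NDUFA2. The ranges of CN did not overlap between NDUFB7 and NDUFA11, between NDUFS8 and NDUFS7, between NDUFS3 and NDUFA7, and between NDUFV1 and NDUFA2, whereas the other 4 neighbours in this order were within each other's range. In PA, NDUFA7 was above NDUFS3 in 2 of 3 embryos, against 0 of 3 in CN.

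NDUFS7 and NDUFS8 each had 4 annotated transcripts, and the other 7 genes had 1. The leading transcripts of NDUFS7 differ only by the 3 bases TAG at the start of exon 4 shown above. The shorter, of 871 bases, held 52.1% ± 2.84 (SD, n = 3) of the gene's TPM in CN and 49.1% ± 5.90 in PA, and the longer, of 874 bases, held 46.6% ± 2.89 and 49.1% ± 5.93. PA2, at 42.4% for the shorter form, was the embryo farthest from the others, and the ranges of the groups overlapped. Neither form was thus the main one in these embryos.

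The leading transcript of NDUFS8 held 87.8% ± 2.57 (SD, n = 3) in CN and 92.2% ± 1.46 in PA. The others differ from it in their first exon. The second, whose first exon lies at chr2:4866923-4867149, held 6.66% to 12.3% in CN and 6.03% to 8.82% in PA, with overlapping ranges. A further one, with its first exon at chr2:4866749-4866928, held 1.16%, 1.89% and 2.65% in CN and 0.372%, 0.215% and 0.507% in PA, without overlap, from 31 to 61 estimated counts in CN and 4 to 10 in PA. Such shares come from Salmon's division of reads among transcripts with common exons and were not tested.

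**Figure D4:**
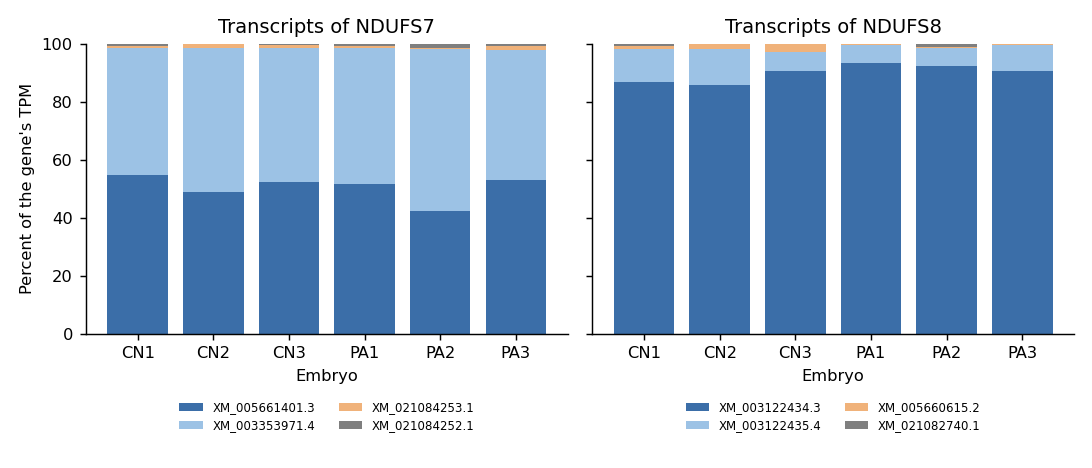
Percent of the TPM of NDUFS7 (left) and NDUFS8 (right) held by each annotated transcript (colours) in each embryo. The pair of NDUFS7 transcripts that differ by 3 bases share the gene about evenly, between 42.4% and 54.7% for the shorter, while 1 transcript holds 85.8% to 93.6% of NDUFS8.

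Exons of 3 of the genes overlap those of a gene on the opposite strand, and the library kit did not keep strand. NDUFS3 shares 162 bases with KBTBD4, whose log2 fold change was 0.01 (standard error 0.09). NDUFA2 shares 41 bases with TMCO6, at 0.03 (0.10). NDUFA7 shares 19 bases with RPS28, a ribosomal protein gene with 8383 to 14408 estimated counts per embryo, at 0.21 (0.19). Reads from these bases cannot be assigned to one gene, and none of the 3 neighbours had a log2 fold change below 0.

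The nearest tested genes on either side of the 9 on the chromosome, 18 in all and chosen after the values were seen, had a median log2 fold change of 0.03. Of these, 6 were negative and 0 passed the edgeR test, the lowest being ALDH3B1 beside NDUFS8, at -1.28 (standard error 0.33, adjusted p = 0.0582). The 9 genes are spread from NDUFS8 at 4863295 to NDUFA2 at 142361126. The closest pair is NDUFS8, which ends at 4867392, and NDUFV1, which starts at 4958508.

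Of the other parts of the respiratory chain only a few genes lie on chromosome 2. Of 28 further nuclear subunits of complex I listed, 0 were on chromosome 2, and no embryo had more than 1.99 estimated counts for any of them. Of 20 assembly factors 1 was tested, ECSIT, which takes part in building the membrane arm, with a log2 fold change of -0.35 (standard error 0.12, edgeR adjusted p = 0.133). COX7C, a subunit of cytochrome c oxidase (complex IV), was at -0.55 (0.26, adjusted p = 0.274), with a normalized CPM of 2394 in CN1 beside 1256 and 1306 in CN2 and CN3. ATP5D, a subunit of the ATP synthase (complex V), was at -0.36 (0.15, adjusted p = 0.202), SDHAF2, an assembly factor of complex II, at -0.21 (0.09, adjusted p = 0.214), and LYRM7, an assembly factor of complex III, at -0.08 (0.22, adjusted p = 0.863). These lists gave 6 tested genes in all, of which 0 passed and 6 were negative. Subunits encoded by mitochondrial DNA were not analysed here.

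Among 4 tested genes of mitochondrial import 0 passed and 3 were negative, with a median of -0.21, and TIMM44, which couples the import motor to the inner membrane, had the most negative value, -0.35 (standard error 0.11, adjusted p = 0.101). The 8 tested mitochondrial ribosome proteins had a median of -0.08, with 7 negative, and 0 passed. Among 4 tested regulators of mitochondrial biogenesis 1 passed, ESRRA. Its normalized CPM was 451, 441 and 447 in CN and 322, 265 and 264 in PA, without overlap, and its log2 fold change was -0.65 (standard error 0.10, 95% interval -0.88 to -0.43, edgeR adjusted p = 0.0067). PPARGC1B, a coactivator of ESRRA named after its value was seen, was at -0.35 with an adjusted p of 0.206. Whether the 9 genes differed from these lists was not tested.

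**Figure D5:**
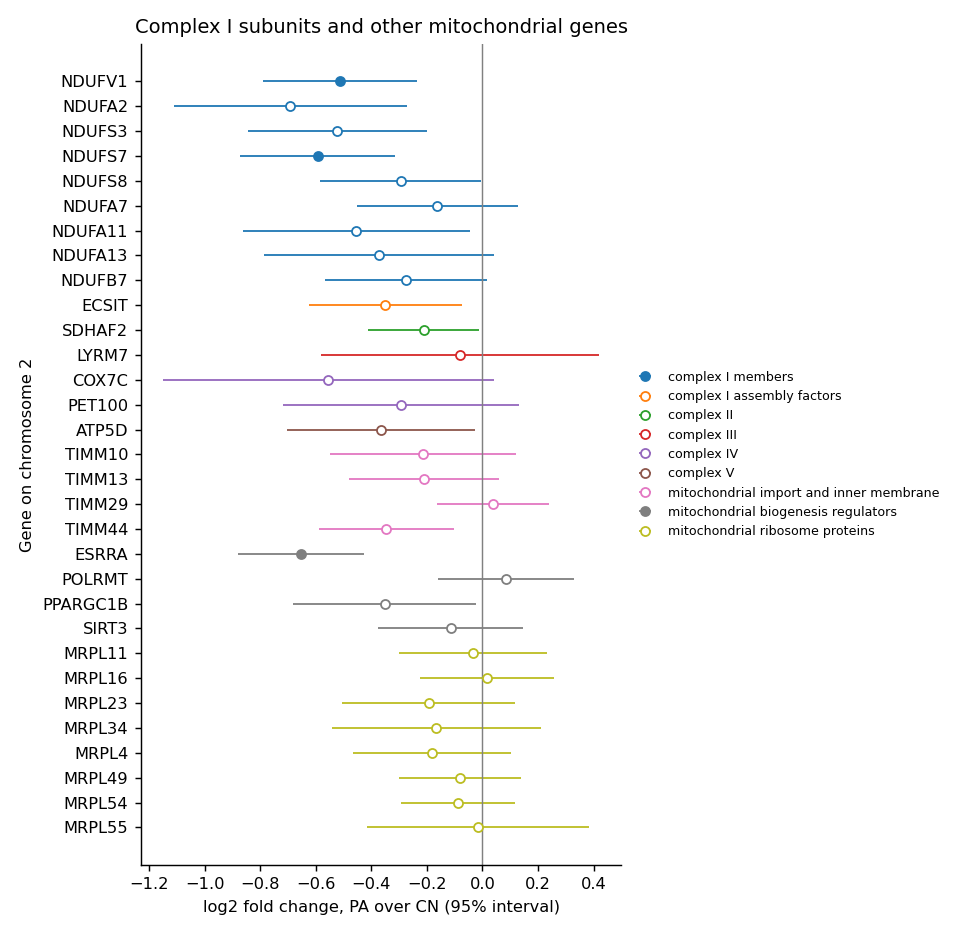
Log2 fold change, PA over CN, with its 95% interval (x axis) for the 9 complex I subunit genes and all other tested mitochondrial genes of the lists (y axis, coloured by list). Filled points have an edgeR adjusted p below 0.05, which holds for NDUFV1, NDUFS7 and ESRRA, and the mitochondrial ribosome proteins lie between -0.19 and 0.02.

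The genes most like the mean of the 9 over the 6 embryos, by the root mean square difference of centred log2 CPM, were TMX2 (0.0482), LDHB (0.0496), ATP5D (0.0538), RASSF7 (0.0579) and PDHX (0.0787). The 9 members themselves were at 0.0674 (NDUFA11) to 0.163 (NDUFA7) from their mean, of which each is a part. LDHB, a lactate dehydrogenase subunit, is annotated on chromosome 5 with a single-exon copy on chromosome 2, so that its counts here are uncertain, and PDHX is a component of the pyruvate dehydrogenase complex. Likeness was a description over 6 embryos and carries the difference between the groups within it.

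Markers of several tissues also differed between the groups. Of 8 tested heart and skeletal muscle markers, tissues rich in complex I, 8 were negative and 3 passed as lower in PA (MYBPC3, PYGM and TNNI2, named after their values were seen), and their summed TPM was 1505 to 1655 in CN and 840 to 1069 in PA. Of 7 tested markers of mesonephric tubules 6 passed as lower, with a summed TPM of 689 to 1045 in CN and 102 to 244 in PA for the 8 on chromosome 2. Of 9 tested neural markers 6 passed as higher, with a sum of 2426 to 2988 in CN and 3149 to 3717 in PA. Of 2 tested erythroid markers 0 passed, with sums of 198 to 336 in CN and 154 to 196 in PA, and of 4 tested liver markers 0 passed, with overlapping sums of 6112 to 7086 in CN and 5102 to 7698 in PA. Markers of these tissues outside chromosome 2, among them those that define red cells and liver best, had at most 3.08 estimated counts in any embryo and could not be read. The part of these tissues in the levels of the 9 genes was not tested.

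The 9 genes have leading transcripts of 535 to 1585 bases. Tested genes shorter than 1000 bases had a median log2 fold change of -0.08 and those of 1000 bases or more of 0.02, and with each embryo's trend with length removed, an alternative chosen after the data were seen, the median of the 9 was -0.37 and 5 of 9 passed, NDUFA2, NDUFA11, NDUFS3, NDUFS7 and NDUFV1 (edgeR), beside 6.66% of all genes called lower in PA. With the trend with GC content removed the median was -0.45 and 4 of 9 passed, beside 5.08% of all genes called lower. Both settings thus raised the calls over all genes as well, from 108 to 158 and 122.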

How the data were processed

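RNA of 3 PA and 3 CN whole embryos was sequenced by the authors after polyA selection with a TruSeq v2 kit, which does not mark strand, and quantified against the pig transcriptome with Salmon 1.3.0. The authors deposited estimated counts, which are not normalized and need not be whole, and TPM values, scaled by Salmon to one sum per embryo, for 81496 transcripts per embryo. Effective lengths came from the same tables. Transcripts were joined to genes by NCBI Sus scrofa Annotation Release 106 (Sscrofa11.1), which held 81322 of them, and summed per gene, chromosome 2 loci only for the 9 genes. Embryos were grouped by their titles.

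Counts were rounded and tested in R 4.3.3 with edgeR 4.0.16: TMM factors, an offset for average transcript length as in tximport, filterByExpr at a minimum count of 10 and total of 15, the robust quasi-likelihood test and Benjamini-Hochberg adjustment over 1652 genes. The standard error is the absolute log2 fold change over the square root of F. The pseudocount for TPM was 0.1. With 3100284 to 3573406 estimated counts per embryo, 3 counts, taken as the floor, equal 0.84 to 0.968 CPM, for counting error only. Pairs of embryos within a group differed by more than counting noise (chi-square per degree of freedom 5.19 to 83.8). The procedure was tested on simulated data, in which it missed a part of the changes of about the size seen in these genes and called some unchanged genes. The alternatives, DESeq2 1.42.0, other scalings, filters and offsets, the replicate block and leaving out each embryo, are in the closing section. The trends with length and GC were fitted by lowess over the 1632 of 1652 tested genes with both values.

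The 9 genes and all lists were chosen with earlier results of these data known. Named besides the 9 were genes of the respiratory chain, import and biogenesis lists on chromosome 2 that passed or had the largest absolute log2 fold change of their list, genes with overlapping exons, and the 5 most alike by centred log2 CPM. PPARGC1B, ALDH3B1, MYBPC3, PYGM and TNNI2 fall outside this rule and were chosen after their values were seen. Python 3.11.15 with pandas 2.3.3 and scipy 1.17.1 joined the tables and gave exact tests.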

Additional observations from a re-analysis of the deposited data

How the results depend on the processing

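The log2 fold change of each of the 9 genes was negative under every alternative run, from -0.82 to -0.05, while which of them passed depended on the setting. The number of the 9 genes called by edgeR, 2 as reported, was 4 with library totals without TMM factors, 6 with no expression filter, 1 with H19 and IGF2 left out before scaling (NDUFV1 then had a log2 fold change of -0.50, against -0.51, and an adjusted p of 0.0503), 5 with the trend with transcript length removed and 4 with the trend with GC content removed, both chosen after seeing the data, and 4 by DESeq2. It was 2 with no length offset and with at least 10 counts in every embryo. The genes called in all were 108 as reported, 126 with library totals without TMM factors, 106 with H19 and IGF2 left out, 121 with no length offset, 95 with at least 10 counts in every embryo, 158 with the trend with length removed, 122 with the trend with GC content removed, 170 by DESeq2 and 196 with no expression filter. With library totals without TMM factors 103 genes were called lower and 23 higher in PA, against 73 and 35 as reported. When single embryos were dropped, 48 to 128 genes were called in all and 0 to 4 of the 9 (107 in all and 0 of the 9 without CN1, 128 and 4 without PA1), and the median log2 fold change of the 9 ranged from -0.62 to -0.26. The cause of these shifts was not tested, except that leaving out an embryo reduces the samples and that dropping the filter raises the genes fitted from 1652 to 4268. The replicate block, with the embryo number as a covariate, called 106 genes and 5 of the 9. Over all tested genes, deviations of same-numbered embryos correlated at 0.254, 0.122 and 0.0428, so the numbers were not taken to pair the embryos. In the 9 genes, however, the order by number was alike in normalized CPM. CN1 and PA1 were each the highest of their group in 9, and CN2 and PA2 each the lowest in 7. Whether same-numbered embryos shared a batch is not given and was not tested. The log2 ratios in TPM moved by less than the spread between embryos with a pseudocount of 1 or without H19 and IGF2.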
